A study of Mus musculus with 13 samples.

Results

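Hippocampus libraries with many transcripts of Ttr, the gene of the thyroxine and retinol carrier transthyretin, were compared with hippocampus libraries that held few. The 13 bulk RNA sequencing libraries of the study were ranked by Ttr CPM (reads of a gene per 1000000 reads assigned to genes), the 6 highest were set against the 6 lowest, and the library in the middle was left out of the comparison, so that 12 of 13 libraries entered it. These are called the Ttr-high and the Ttr-low libraries. They are sets made from the measured Ttr level and not groups of the study. The study itself compared 7 male mice with App NL-G-F, Lpcat3 f/f and vav1-CRE, labelled Lpcat3 knockout and called knockout here, with 6 male mice with App NL-G-F and Lpcat3 f/f alone, labelled WT and called control here. All were 9 months old, and tamoxifen was given to all by gavage, from a solution of 20 mg/ml at 0.2 mg per g body weight. App NL-G-F is a knock-in of mutations into the amyloid precursor gene, Lpcat3 codes for an enzyme that puts arachidonic acid into phospholipids, and vav1-CRE acts in blood-forming cells and their descendants, so the controls carry the amyloid alleles and the floxed Lpcat3 too. The labels do not tie each library to an animal of its own, and the p-values below reflect the scatter among libraries, part of which may be technical.

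The choroid plexus is a frond of tissue that hangs in the brain ventricles, and one of its sheets lies against the hippocampus. A single layer of epithelial cells covers it, joined by tight junctions, and secretes cerebrospinal fluid by moving sodium, chloride, bicarbonate and water. These cells make transthyretin and other secreted proteins in large amounts, and beneath them lies a stroma of fibroblasts, macrophages and fenestrated vessels. Hippocampal neurons and glia do not share most of this programme.

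Ttr did not vary evenly over the 13 libraries but fell into a low and a high range. In the Ttr-low libraries it was counted at 18.9 CPM in knockout 2, 27.2 in control 4, 35.1 in control 3, 38.2 in knockout 4, 43.4 in knockout 7 and 75.1 in knockout 6. In the Ttr-high libraries it was counted at 881 CPM in control 6, 984 in knockout 1, 1298 in control 5, 1326 in control 2, 1378 in knockout 5 and 2074 in knockout 3. The middle library, control 1, had 592 CPM and lay nearer to the high range. Ttr was present in every library, with 277 to 1289 reads in the Ttr-low ones. The Ttr-high set held 3 knockouts and 3 controls, and the Ttr-low set 4 knockouts and 2 controls. Because Ttr chose the sets, its own difference is not tested, and a p-value given for another gene says how that gene went with Ttr across these libraries.

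Total counts ran from 12159941 to 18322559 per library. The share of mitochondrial-encoded reads was 1.49% to 1.94% in the Ttr-high and 1.45% to 1.87% in the Ttr-low libraries. In an exact permutation test (two-sided, 6 against 6), total counts (p = 0.262), mitochondrial share (p = 0.552), haemoglobin share (p = 0.543) and the number of genes with at least 10 reads (p = 0.974) did not separate the sets. The smallest p this design allows is 0.00216, and after adjustment over the 4 measures the values were 0.736 to 0.974.

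**Figure D1:**
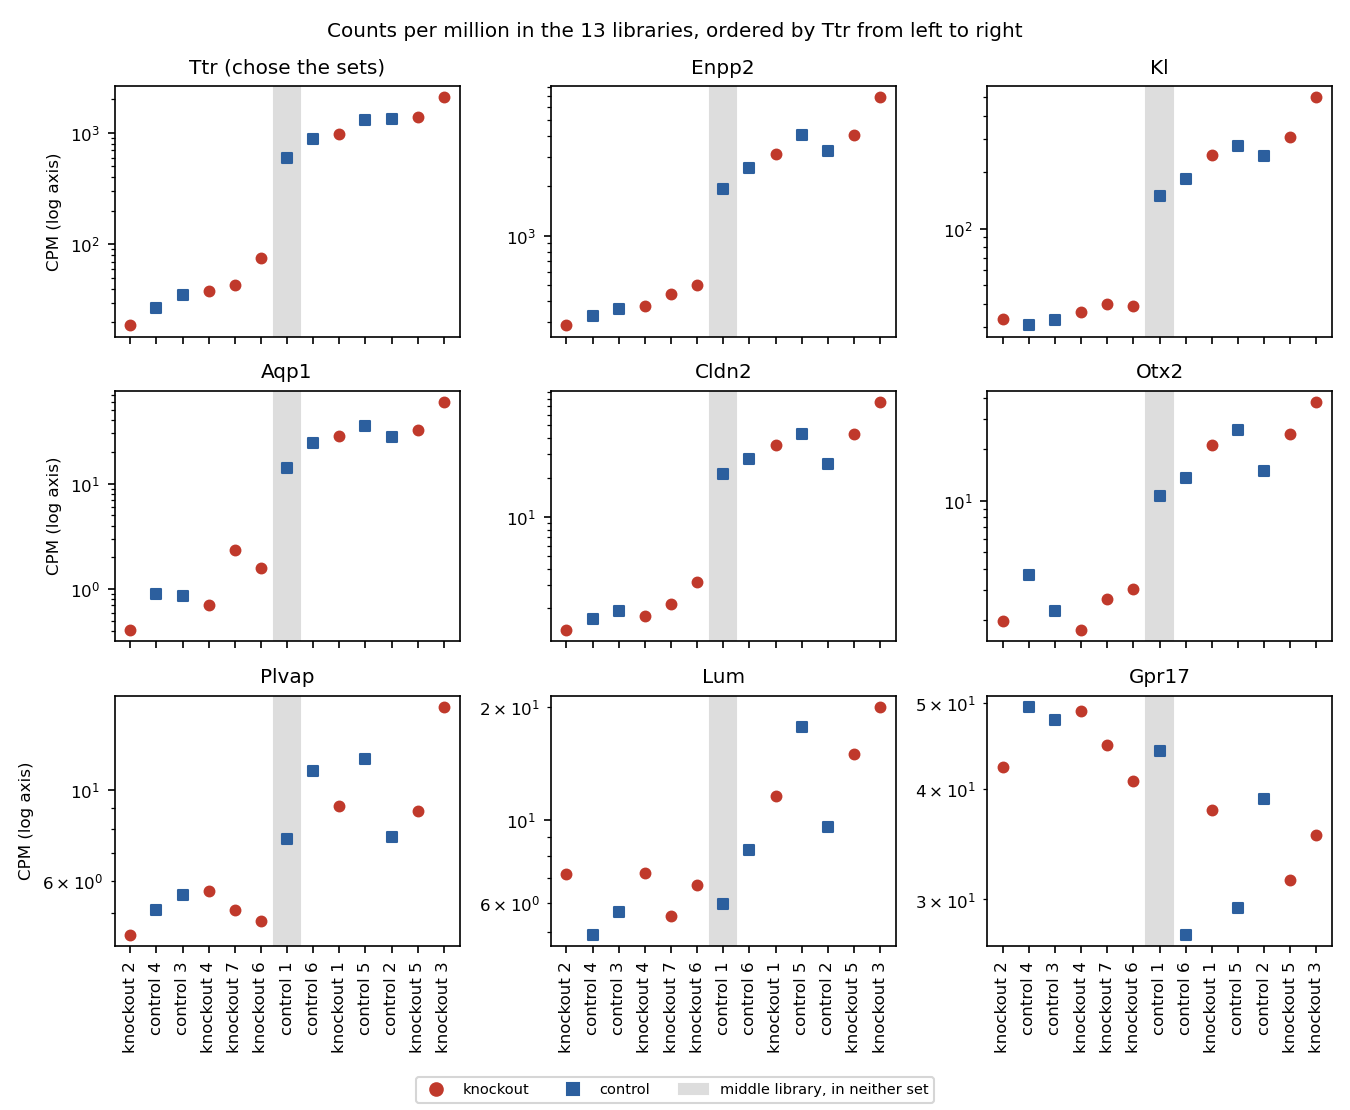
CPM (log axis) of Ttr and 8 other genes in the 13 libraries, ordered by Ttr from left to right; circles are knockouts, squares are controls, and the grey band marks the middle library. Enpp2, Kl, Aqp1, Cldn2 and Otx2 show the same gap between the 6 left and the 7 right libraries as Ttr, Plvap and Lum are higher on the right, and Gpr17 is lower in the 6 libraries at the right.

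Across all genes, the difference between the sets was lopsided. With genotype in the model, 17424 genes besides Ttr were tested in edgeR (quasi-likelihood F-test, Benjamini-Hochberg adjusted p under 0.05). Of these, 652 were higher in the Ttr-high libraries, which is 3.74% of those tested, and 135 were lower, which is 0.775%; together that is 4.52%. Over all genes tested the median log2 difference was -0.01. At an unadjusted p under 0.05 (edgeR), 1484 of the 17424 genes were higher and 1231 were lower. Of the 652 higher genes, 46 were on the epithelium lists described below. Among the genes that rose, 217 did so by more than 2-fold and 50 by more than 8-fold. The 652 higher genes together held 25520 to 37775 CPM in the Ttr-high libraries and 17550 to 18717 CPM in the Ttr-low ones. The 135 lower genes together held 14403 to 15735 CPM against 16273 to 17649 CPM. The sets of libraries do not overlap in either sum, which the choice of the genes fixes. Values of the 6 libraries of one set did not overlap those of the other for 432 genes that were higher (2.48% of the genes tested) and 46 that were lower (0.264%). In bulk tissue, fewer cells of a type and less RNA per cell cannot be told apart.

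**Figure D2:**
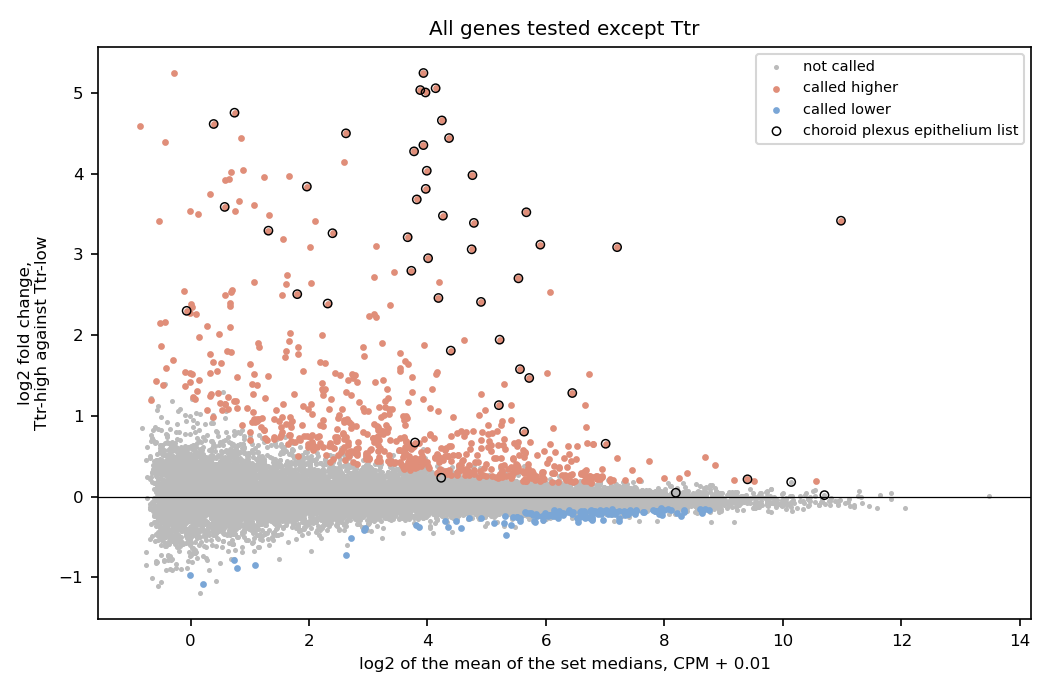
Log2 fold change of each tested gene, Ttr-high against Ttr-low, against its level as the log2 of the mean of both set medians; red dots are the 652 genes called higher, blue dots the 135 called lower, and circles 49 of the 50 tested choroid plexus epithelium genes. Among called genes with a mean CPM of at least 1, predicted genes left out, the differences above 2 are all upward and the lower genes reach -1.08.

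Genes of the choroid plexus epithelium filled the top of the list. Without Ttr, 52 epithelial genes were listed in 5 groups by role, and 50 of them had enough reads to be tested. Of these, 46 were higher in the Ttr-high libraries, none was lower and 4 did not pass, beside the 3.74% of all tested genes that were higher. The median log2 fold change of the 50 was 3.11. Only 36 of the 50 had enough reads in the Ttr-low libraries alone, and the other 14 entered through the Ttr-high libraries, so the count and the median are a description. Aqp1, Kcne2, Slc4a5, Tmem72, Cltrn and Cdh3 were among these 14, so their differences were partly fixed by the filter. For 42 of the 50 the libraries of the sets did not overlap, beside 2.48% of all genes. Summed over the 52 genes, the level was 8165 to 14277 CPM in the Ttr-high, 4251 to 4831 CPM in the Ttr-low libraries and 6629 CPM in the middle one.

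**Figure D3:**
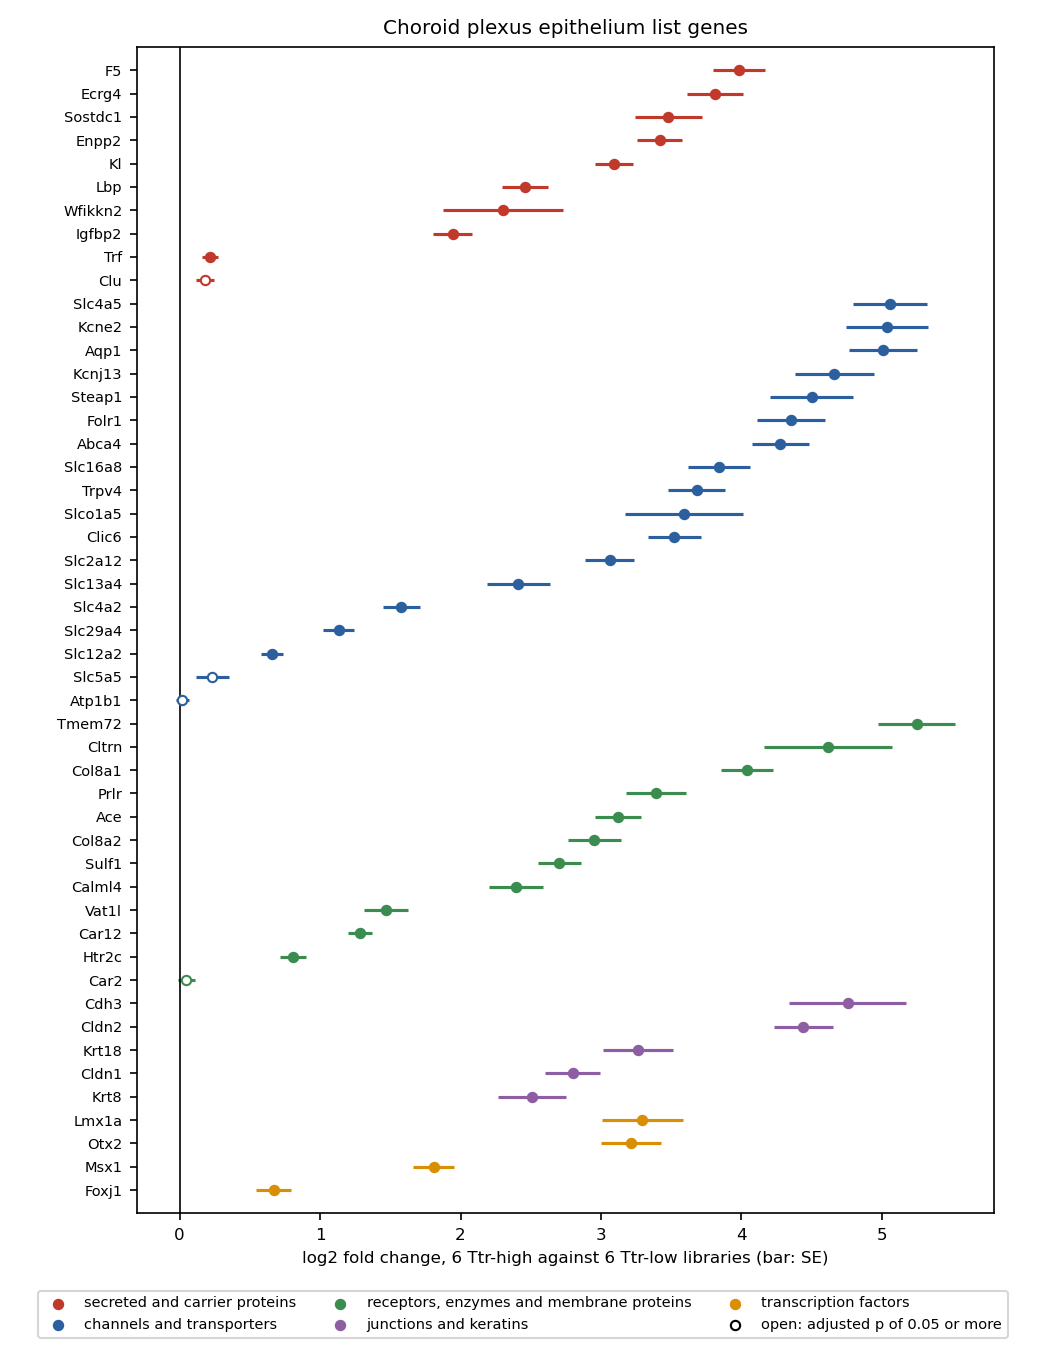
Log2 fold change (dot) and its standard error (bar) of 49 of the 50 tested choroid plexus epithelium genes, 6 Ttr-high against 6 Ttr-low libraries, grouped by role; open dots did not pass the adjusted p of 0.05. Values run from 0.02 (Atp1b1) to 5.25 (Tmem72), and the 4 open dots are Clu, Slc5a5, Atp1b1 and Car2.

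The 4 genes with the greatest fold change in these groups were Tmem72, a membrane protein of the epithelium, Slc4a5, a sodium bicarbonate transporter, Kcne2, a potassium channel subunit, and Aqp1, the water channel of the apical membrane. The 250 bases before their transcription start are given here because these 4 genes rose together, by 32.1-fold to 38.0-fold. They are read on the gene's strand, 5′ to 3′, from the RefSeq annotation on GRCm38.p6: Tmem72 at chr6:116716759-116717008 on the minus strand, Slc4a5 at chr6:83237125-83237374, Kcne2 at chr16:92292139-92292388 and Aqp1 at chr6:55336049-55336298, these 3 on the plus strand. Capitals mark GTTGCC or its complement GGCAAC.
Tmem72: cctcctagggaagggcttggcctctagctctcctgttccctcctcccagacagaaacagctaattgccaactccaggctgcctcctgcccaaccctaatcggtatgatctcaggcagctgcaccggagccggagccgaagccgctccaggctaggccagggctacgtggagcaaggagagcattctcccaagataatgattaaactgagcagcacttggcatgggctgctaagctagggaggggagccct
Slc4a5: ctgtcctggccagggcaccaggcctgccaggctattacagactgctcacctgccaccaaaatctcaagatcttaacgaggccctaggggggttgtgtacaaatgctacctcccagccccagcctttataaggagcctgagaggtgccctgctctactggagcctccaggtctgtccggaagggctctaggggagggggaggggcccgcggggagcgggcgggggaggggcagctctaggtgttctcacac
Kcne2: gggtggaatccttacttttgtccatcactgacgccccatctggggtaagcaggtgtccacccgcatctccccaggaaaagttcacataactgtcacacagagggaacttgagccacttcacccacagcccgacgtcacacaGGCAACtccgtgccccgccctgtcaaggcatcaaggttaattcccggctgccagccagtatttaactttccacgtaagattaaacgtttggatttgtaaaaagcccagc
Aqp1: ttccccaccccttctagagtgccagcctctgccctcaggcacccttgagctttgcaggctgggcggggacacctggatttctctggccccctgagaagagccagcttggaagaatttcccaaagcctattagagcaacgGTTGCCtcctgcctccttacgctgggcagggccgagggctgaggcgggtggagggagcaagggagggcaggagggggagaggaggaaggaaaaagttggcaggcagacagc
The letters TAATCC (bound by Otx homeodomain factors), GTAAACA (bound by forkhead factors) and GTTGCC (part of the site of RFX factors of ciliated cells) were searched on both strands, and no match of one overlapped another in these 4. GTTGCC was found before Kcne2 and Aqp1, and no other of these letters was found in the 4 windows. A window of this kind was looked up for 45 of the 46 epithelial genes called higher, and 35 had one. TAATCC lay in 3 of the 35 (8.57%) and in 6.38% of the 27025 first-listed starts of all genes, GTAAACA in 0 of 35 and in 3.09%, and GTTGCC in 5 of 35 (14.3%) and in 10.5%. A match is a description of letters.

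Channels and transporters carry the ions and water that make cerebrospinal fluid. In this group 16 of 18 genes were higher, none was lower, and the median log2 fold change was 3.64. Of the 18, 11 had enough reads in the Ttr-low libraries alone. Aqp1, Kcne2, Slc4a5 and Slco1a5 were not among the 11, and neither were some of the other genes named in this paragraph. The folds and adjusted p-values of all such genes, and the count and median of the group, are a description. Aqp1 was counted at 0.41, 0.88 and 2.36 CPM (lowest, median and highest) in the Ttr-low and at 24.2, 30.4 and 59.2 CPM in the Ttr-high libraries. It was low in every Ttr-low library, with 6 to 32 reads, and higher in every Ttr-high one, and differed by 5.01 ± 0.24 on the log2 scale (SE; edgeR adjusted p = 3.9e-12). Kcne2 was counted at 0.34, 0.97 and 2.27 CPM against 22.05, 28.4 and 62.8 CPM, a log2 difference of 5.04 ± 0.29 (SE; edgeR adjusted p = 5.1e-11). Slc4a5 was counted at 0.34, 0.80 and 3.03 CPM against 25.6, 34.4 and 66.4 CPM, a log2 difference of 5.06 ± 0.26 (SE; edgeR adjusted p = 1.3e-11). Both lay in separate ranges in the 2 sets, with knockout 3 at the top and knockout 2 at the bottom. Next came Kcnj13, an inward rectifier potassium channel, with a log2 fold change of 4.66, Steap1, a metalloreductase, with 4.50, Folr1, the folate receptor that brings folate into cerebrospinal fluid, with 4.35, and Abca4 with 4.28. Slc16a8, a lactate transporter, rose by 3.84, the cation channel Trpv4 by 3.68, Slco1a5 by 3.59, the chloride channel Clic6 by 3.52 and the glucose transporter Slc2a12 by 3.06. Smaller changes were found for the sulfate transporter Slc13a4 (2.41), the anion exchanger Slc4a2 (1.58) and the monoamine transporter Slc29a4 (1.13). The least was that of Slc12a2, the sodium, potassium and chloride cotransporter, which had 91.5 to 108 CPM in the Ttr-low and 128 to 201 CPM in the Ttr-high libraries, without overlap (log2 fold change 0.66 ± 0.08, SE; edgeR adjusted p = 4.9e-06). Atp1b1, a subunit of the sodium pump, was counted at 1528 to 1802 CPM in the Ttr-low and 1527 to 1742 CPM in the Ttr-high libraries (log2 fold change 0.02 ± 0.05, SE; edgeR adjusted p = 0.91). The iodide transporter Slc5a5 had a log2 fold change of 0.23 ± 0.12 (SE; edgeR adjusted p = 0.34).

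Of the secreted and carrier proteins, 10 of 11 were higher and none was lower, with a median log2 fold change of 2.46. In the Ttr-low libraries alone 10 of the 11 had enough reads, so the count is a description. Enpp2, or autotaxin, the enzyme that makes lysophosphatidic acid, held more reads in the Ttr-high libraries than any other gene of this group, with 286, 367 and 499 CPM (lowest, median and highest) in the Ttr-low and 2581, 3675 and 6907 CPM in the Ttr-high libraries. Even the lowest Ttr-low library had 3982 Enpp2 reads, and the sets did not overlap (log2 fold change 3.42 ± 0.16, SE; edgeR adjusted p = 3.2e-12). Kl, the membrane protein klotho, was counted at 30.7, 34.4 and 39.8 CPM against 183, 260 and 500 CPM. The Ttr-low libraries lay close together and the Ttr-high ones were spread (log2 fold change 3.09 ± 0.14, SE; edgeR adjusted p = 3.2e-12). The coagulation factor F5 rose by 3.98 on the log2 scale, Ecrg4 by 3.81, the BMP and Wnt antagonist Sostdc1 by 3.48, the lipopolysaccharide binding protein Lbp by 2.46, Wfikkn2 by 2.30 and Igfbp2 by 1.94. Igfbp2 was counted at 12.7, 16.7 and 20.7 CPM against 48.5, 57.8 and 92.7 CPM, again in separate ranges. Transferrin (Trf), which oligodendrocytes make as well, had 588 to 747 CPM against 697 to 836 CPM with overlap (log2 fold change 0.21 ± 0.06, SE; edgeR adjusted p = 0.028). The Trf call was lost without knockout 2, knockout 3, knockout 4, control 3 or control 4, with an edgeR adjusted p of up to 0.11. Clusterin (Clu), which astrocytes also make, did not pass (log2 fold change 0.18 ± 0.06, SE; edgeR adjusted p = 0.12).

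Receptors, enzymes and membrane proteins were higher in 11 of 12 cases, with a median log2 fold change of 2.83. In the Ttr-low libraries alone 10 of the 12 had enough reads, so the count is a description. Tmem72 was counted at 0.14, 0.63 and 2.33 CPM in the Ttr-low and at 22.8, 29.9 and 64.6 CPM in the Ttr-high libraries. With 2 to 40 reads in the Ttr-low libraries it had the greatest fold of all 50 genes (log2 fold change 5.25 ± 0.28, SE; edgeR adjusted p = 1.4e-11). Tmem72 passed the count filter only through the Ttr-high libraries, so this difference is a description. Cltrn had 0 to 3 reads in the Ttr-low libraries against 1.15 to 4.28 CPM in the Ttr-high ones, so its fitted fold is not given. The short-chain collagens Col8a1 and Col8a2 rose by 4.04 and 2.95, the prolactin receptor Prlr by 3.39, the angiotensin converting enzyme Ace by 3.12, the heparan sulfatase Sulf1 by 2.704 and Calml4 by 2.39. Smaller changes were those of Vat1l, which rose by 1.47, of the carbonic anhydrase Car12, by 1.28, and of the serotonin receptor Htr2c, which neurons also express, by 0.81. The carbonic anhydrase Car2, which oligodendrocytes also express, had 250 to 318 CPM against 269 to 340 CPM (log2 fold change 0.05 ± 0.06, SE; edgeR adjusted p = 0.79).

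Of 7 genes of junctions and keratins, 5 were tested and all 5 were higher, with a median log2 fold change of 3.26. Only 2 of the 5 had enough reads in the Ttr-low libraries alone, so the count and the median are a description. The tight junction protein Cldn2, which makes the epithelium leaky to cations, had 1.363, 1.82 and 3.20 CPM in the Ttr-low and 25.5, 39.3 and 75.2 CPM in the Ttr-high libraries (log2 fold change 4.44 ± 0.21, SE; edgeR adjusted p = 3.6e-12). Cldn1 rose by 2.80, the keratins Krt18 and Krt8 by 3.26 and 2.51, and the cadherin Cdh3, with 0 to 6 reads in the Ttr-low libraries, lay at 2.08 to 10.05 CPM in the Ttr-high ones. Cldn3 and Epcam did not pass the count filter and reached at most 1.32 CPM and 0.99 CPM. All 4 transcription factors were higher. Of the 4, 3 had enough reads in the Ttr-low libraries alone, so this count is a description. Otx2, which the epithelium needs to form and persist, was counted at 1.75, 2.46 and 3.69 CPM against 13.6, 22.9 and 37.8 CPM (log2 fold change 3.21 ± 0.21, SE; edgeR adjusted p = 5.0e-10). Lmx1a rose by 3.29 and Msx1 by 1.81. Foxj1, the regulator of motile cilia, which ependymal cells also express, overlapped between the sets and rose by 0.67 ± 0.12 (SE; edgeR adjusted p = 0.0014).

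Within the high range most of the epithelial genes also rose with Ttr, though how many passed depended on single libraries. Among the 7 libraries with the most Ttr, the 6 Ttr-high ones and the middle one, log2 CPM of Ttr was used as a continuous term beside genotype; this was chosen after seeing the data. Of the 50 epithelial genes, 33 rose with Ttr there (edgeR adjusted p under 0.05), beside 0.396% of all genes, and 48 had a positive slope with a median of 0.77, against a median slope of 0.003 over all genes. Kl rose by 0.79 ± 0.08 per doubling of Ttr (SE; edgeR adjusted p = 6.2e-05) and Enpp2 by 0.90 ± 0.09 (SE; edgeR adjusted p = 5.1e-05). The count of 33 depended on single libraries: it was 13 without knockout 3, 15 without knockout 1 and 18 without control 1. Among the 6 Ttr-low libraries 1 of the 50 rose with Ttr, beside 0.0746% of all genes, and 42 had a positive slope. Ranking the libraries by the mean log2 CPM of the 50 epithelial genes in place of Ttr gave the same 6 highest and 6 lowest libraries. These genes include those that entered through the Ttr-high libraries, so this match was partly fixed by the filter. The slopes above use the same 50 genes and the same Ttr values that made the sets, so their counts and p-values are a description.

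Both genotypes showed the difference. Among the 7 knockouts, 3 Ttr-high and 4 Ttr-low, 45 epithelial genes were higher, beside 3.39% of all genes. Among 5 controls, 3 Ttr-high and 2 Ttr-low, 43 were higher, beside 1.08% of all genes. Enpp2 rose by 3.55 ± 0.19 in knockouts and 3.25 ± 0.16 in controls (log2, SE), and Aqp1 by 5.02 ± 0.30 and 5.02 ± 0.25. The sets here are the same ones that Ttr chose. In the main comparison Aqp1 and other epithelial genes passed the count filter only through the Ttr-high libraries. The counts and differences within a genotype are therefore a description. An interaction of set and genotype passed for 1 of the 17424 genes in edgeR (0.00574%), the kinase gene Sgk1, and was at an unadjusted p under 0.05 for 1337; DESeq2 called 9. Sgk1 was counted at 216 to 288 CPM in the 4 Ttr-low knockouts and at 91.8 and 111 CPM in the 2 Ttr-low controls. In the Ttr-high libraries it had 170, 185 and 154 CPM in the knockouts and 134, 172 and 211 CPM in the controls.

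Stroma and vessels of the choroid plexus were measured by lists of their own. Of 20 tested genes of fibroblasts of the plexus stroma and the leptomeninges 5 were higher and none was lower (25%, beside 3.74% of all genes), with a median log2 fold change of 0.39. Of the 20, 18 had enough reads in the Ttr-low libraries alone, so the count is a description. Dpep1 was not among the 18, and its difference was partly fixed by the filter. Lum, the collagen-binding protein lumican, was counted at 4.93, 6.18 and 7.20 CPM in the Ttr-low and 8.34, 13.3 and 20.0 CPM in the Ttr-high libraries, without overlap (log2 fold change 1.18 ± 0.16, SE; edgeR adjusted p = 3.7e-05). The dipeptidase gene Dpep1 rose by 2.54 from 2 to 6 reads in the Ttr-low libraries, the growth factor gene Igf2 by 1.54, the organic anion transporter gene Slc22a8 by 0.43 and the matrix gene Fbln1 by 0.47. The Igf2 call was lost without knockout 3 (edgeR adjusted p = 0.074) and the Slc22a8 call without control 3 or control 4 (edgeR adjusted p of up to 0.054). The summed fibroblast list had 430 to 990 CPM in the Ttr-high and 421 to 788 CPM in the Ttr-low libraries, so the sets overlapped.

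Fenestrated vessels have pores covered by diaphragms, which Plvap forms, and occur in the plexus but not in the vessels of the hippocampus. Of the 4 genes listed for them 2 were tested, and both were higher, beside 3.74% of all genes tested. Exoc3l2 passed the count filter only through the Ttr-high libraries, so its difference was partly fixed by the filter. Plvap had 4.43, 5.09 and 5.68 CPM in the Ttr-low and 7.65, 10.1 and 15.9 CPM in the Ttr-high libraries, without overlap (log2 fold change 1.07 ± 0.15, SE; edgeR adjusted p = 5.7e-05). Exoc3l2 rose by 1.86 from 3 to 10 reads per Ttr-low library. Of 14 genes of the brain endothelium, which forms the blood-brain barrier, 2 were higher, with a median of 0.06. These were Ocln, a tight junction gene that epithelia also express, with 0.39 ± 0.07 (SE; edgeR adjusted p = 0.00045), and the organic anion transporter gene Slco1a4 with 0.30, whose call was lost without knockout 2, knockout 5, control 3 or control 4 (edgeR adjusted p of up to 0.089). Cldn5, the main claudin of that endothelium, did not pass, with 10.99 to 19.8 CPM against 12.2 to 16.3 CPM. None of 8 mural cell genes and none of 4 tested genes of border-associated macrophages passed in edgeR or in DESeq2, and 0 were at an unadjusted p under 0.05; Mrc1, the mannose receptor of those macrophages, had 3.17 to 5.95 CPM against 1.81 to 8.67 CPM, and Folr2 and Pf4 stayed below 1 CPM in every library of either set.

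Of 20 genes of ciliated ependymal cells, which line the ventricle walls, 6 were higher (30%, beside 3.74% of all genes tested) and none was lower, with a median log2 fold change of 0.26. In the Ttr-low libraries alone 19 of the 20 had enough reads. Tekt1, a tektin of the ciliary axoneme, had 1.98, 2.60 and 3.61 CPM against 4.19, 5.71 and 6.70 CPM, without overlap (log2 fold change 1.03 ± 0.16, SE; edgeR adjusted p = 0.00024). Rsph1, a radial spoke gene, rose by 0.97, Ak7 by 0.58, Cfap43 by 0.64, Ccdc39 by 0.26 and Foxj1 as above. The Cfap43 call was lost without knockout 3 (edgeR adjusted p = 0.12). The part of fibroblasts, fenestrated vessels and ependymal cells in the differences of other genes was not tested. The summed ependymal list was 91.7 to 124 CPM in the Ttr-high and 78.4 to 109 CPM in the Ttr-low libraries and overlapped.

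**Figure D4:**
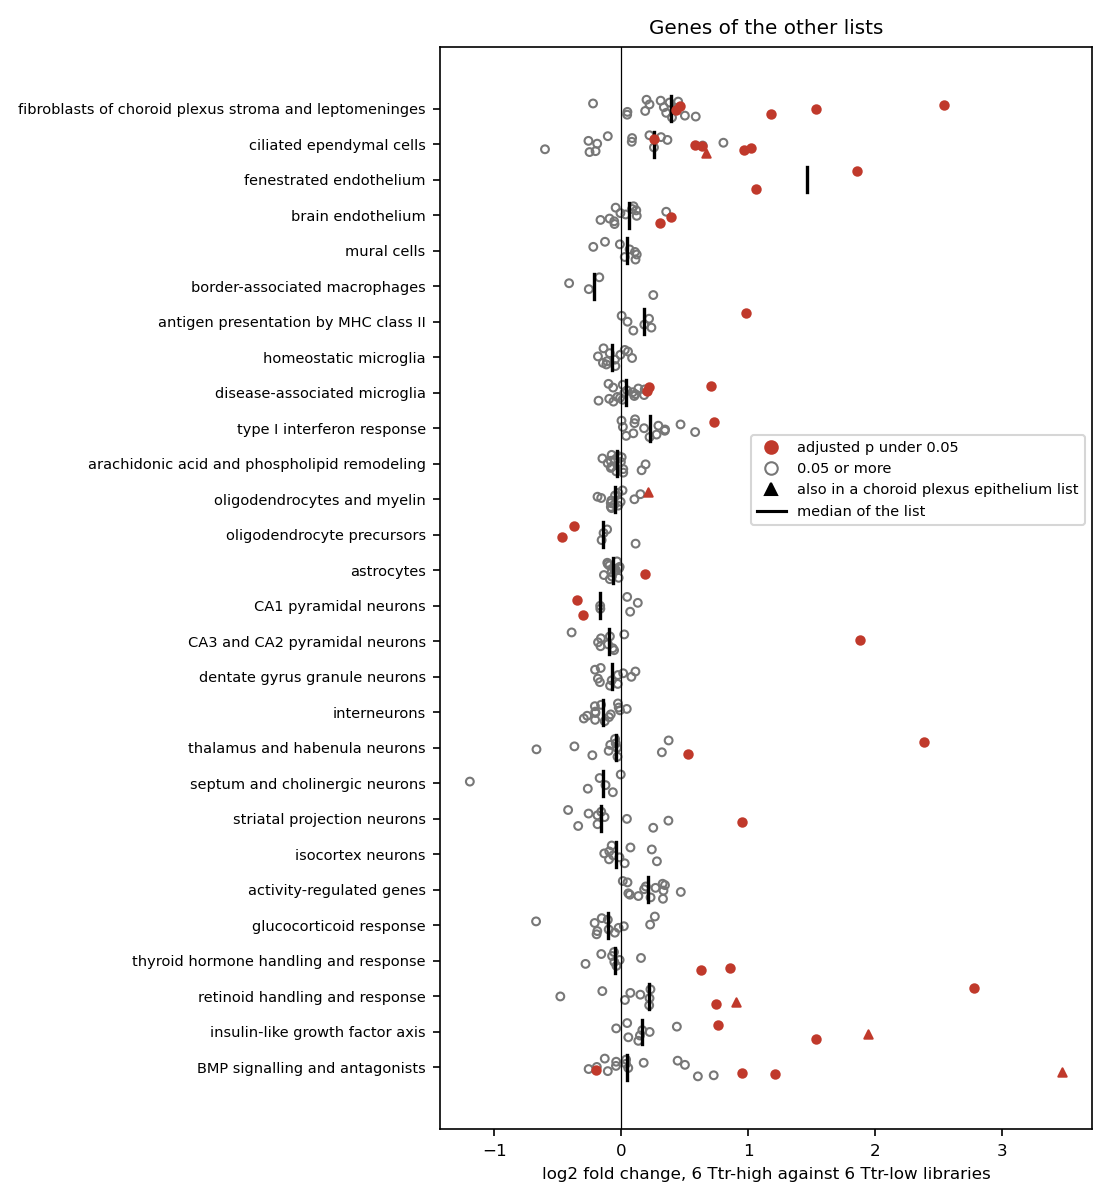
Log2 fold change of each tested gene in the lists other than choroid plexus epithelium, 6 Ttr-high against 6 Ttr-low libraries; filled points passed the adjusted p of 0.05, triangles are genes that are also in an epithelium list, and vertical bars are list medians. Most medians lie within 0.3 of 0, and the points far to the right are single genes such as Rdh5, Chrnb4 and Coch.

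Several genes on the lists of hormone and vitamin handling were also higher. Of all genes tested, 3.74% were higher and 0.775% were lower. Of 11 tested retinoid genes 3 were higher, among them Rdh5, a retinol dehydrogenase, from 2.52 to 3.78 CPM to 14.6 to 35.1 CPM (log2 fold change 2.78 ± 0.18, SE; edgeR adjusted p = 4.9e-10), and Stra6, the receptor that takes up retinol, by 0.75. Of 10 genes of thyroid hormone handling 2 were higher. Slco1c1, a transporter of the hormone, had 65.7, 74.6 and 84.0 CPM against 108, 131 and 191 CPM (log2 fold change 0.86 ± 0.08, SE; edgeR adjusted p = 6.2e-08), without overlap. Of 11 genes of the insulin-like growth factor axis 3 were higher, Igfbp2, Igf2 and Igfbp7 (0.76). Of 18 BMP genes 3 were higher and 1 was lower: Sostdc1, the ligands Bmp6 (1.21 ± 0.16, SE; edgeR adjusted p = 2.4e-05) and Bmp7 (0.95), and the antagonist Chrd, which was lower by a log2 fold change of -0.20. The Chrd call was lost in 9 of 12 omissions of 1 library and held without control 2, control 4 or knockout 6 (edgeR adjusted p of up to 0.27 over the omissions). Igfbp2, Sostdc1 and 1 of the 3 retinoid genes are also on the epithelium lists, and Igf2 is on the fibroblast list. These were already counted above. In the Ttr-low libraries alone 10 of the 11 growth factor genes and 16 of the 18 BMP genes had enough reads.

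Few genes on the neuron lists rose. Of all genes tested, 3.74% were higher and 0.775% were lower. The counts at an unadjusted p under 0.05 below stand beside 1484 higher and 1231 lower among all 17424 genes. Coch, a secreted matrix protein gene on the CA3 and CA2 list, had 4.51, 6.84 and 9.40 CPM against 13.98, 23.8 and 40.3 CPM (log2 fold change 1.88 ± 0.18, SE; edgeR adjusted p = 1.8e-07), while the other 9 of its list did not pass. Ppp1r1b, the signalling protein DARPP-32, had 26.3, 29.9 and 36.2 CPM against 45.4, 55.3 and 81.6 CPM (log2 fold change 0.95 ± 0.11, SE; edgeR adjusted p = 4.0e-06), while the other 10 striatal genes did not pass in edgeR. Of the 11 striatal genes, 2 were higher and 3 were lower at an unadjusted p under 0.05, and DESeq2 called Gng7, a G protein subunit gene, lower. Chrnb4, a nicotinic receptor subunit with 1 to 10 reads per Ttr-low library, and the Wnt pathway factor Lef1 rose by 2.39 and 0.53 on the list of thalamus and habenula, where the other 11 did not pass. Chrnb4 passed the count filter only through the Ttr-high libraries, so its difference was partly fixed by the filter. None of 11 dentate gyrus, 14 interneuron, 6 septal or 10 isocortical genes passed in edgeR. At an unadjusted p under 0.05, lower values were found for 3 dentate gyrus, 6 interneuron, 2 septal and 1 isocortical gene and a higher value for 1 isocortical gene, and DESeq2 called 1 of them, Sst, lower. The CA1 genes Fibcd1, a chitin receptor, and Gpr161 were lower by log2 fold changes of -0.30 ± 0.06 (SE; edgeR adjusted p = 0.0021) and -0.35 ± 0.08 (SE; edgeR adjusted p = 0.0092), and the other 5 of their list did not pass. The Gpr161 call was lost without control 3 (edgeR adjusted p = 0.070). None of 14 activity-regulated genes passed in edgeR, while all 14 had a positive log2 fold change with a median of 0.21; 6 were at an unadjusted p under 0.05, and DESeq2 called Btg2 higher. Of 12 glucocorticoid response genes none passed in edgeR or DESeq2, and 1 was higher and 3 were lower at an unadjusted p under 0.05.

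Microglia descend from blood-forming progenitors, the lineage in which vav1-CRE acts, and 3 of their listed genes were called between the Ttr sets. Among all 17424 genes, 1484 were higher and 1231 were lower at an unadjusted p under 0.05. None of 12 homeostatic genes passed in edgeR or DESeq2, with 1 lower at an unadjusted p under 0.05 (median log2 fold change -0.07); P2ry12, a purine receptor, had 89.2 to 110 CPM in the Ttr-low and 87.2 to 99.8 CPM in the Ttr-high libraries. Of 20 genes of disease-associated microglia 3 were higher (15%, beside 3.74% of all genes tested), with a median of 0.03: the lectin gene Lgals3 (0.71 ± 0.18, SE; edgeR adjusted p = 0.024), the tetraspanin gene Cd9 (0.22 ± 0.06, SE; edgeR adjusted p = 0.027) and the lysosomal protease gene Ctsd (0.20 ± 0.06, SE; edgeR adjusted p = 0.043). The Lgals3 call was lost without knockout 2, knockout 3, knockout 5, control 3 or control 5 (edgeR adjusted p of up to 0.085). The Cd9 call was lost without knockout 2, knockout 3, control 3 or control 4 (up to 0.098), and that of Ctsd in 8 of 12 omissions, holding without knockout 1, knockout 6, knockout 7 or control 2 (up to 0.15). Trem2, Tyrobp, Itgax, Clec7a, Cst7 and Apoe did not pass; Apoe, the lipoprotein made by astrocytes and activated microglia, had 911 to 1241 CPM against 940 to 1364 CPM. None of 16 genes of arachidonic acid and phospholipid remodeling passed in edgeR or DESeq2, with 1 higher at an unadjusted p under 0.05; Lpcat3 was among those that did not pass (18.4 to 28.7 CPM against 17.3 to 30.6 CPM). All 15 interferon response genes had a positive log2 fold change, with a median of 0.22, and 5 were higher at an unadjusted p under 0.05. Of them Bst2 was called (0.73), and its call was lost in 9 of 12 omissions, holding without knockout 4, control 5 or control 6 (edgeR adjusted p of up to 0.13). Of 7 class II antigen presentation genes the 1 that passed was H2-DMb1 (0.98 ± 0.21, SE; edgeR adjusted p = 0.0058).

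Other glia showed small differences, beside 3.74% of all genes tested that were higher and 0.775% that were lower. Without adjustment, 1484 of the 17424 genes were higher and 1231 were lower at a p under 0.05. Gpr17, a receptor of committed oligodendrocyte precursors, had 40.8, 46.4 and 49.5 CPM in the Ttr-low and 27.4, 33.5 and 38.9 CPM in the Ttr-high libraries, without overlap, and differed by -0.47 ± 0.08 on the log2 scale (SE; edgeR adjusted p = 0.00063). The middle library had 44.1 CPM, within the Ttr-low range. Olig2, a factor of that lineage, was lower by a log2 fold change of -0.37 ± 0.09 (SE; edgeR adjusted p = 0.015), and this call was lost without knockout 3 or control 4 (edgeR adjusted p of up to 0.088). The other 4 of 6 precursor genes did not pass, and of 15 myelin genes Trf alone passed. Of 14 astrocyte genes 13 had a negative log2 fold change, with a median of -0.06; 2 were lower and 1 was higher at an unadjusted p under 0.05, and DESeq2 called Slc1a3, a glutamate transporter gene, lower. In edgeR the remaining gene, Aldh1l1, passed as higher (0.18), but not in 9 of 12 omissions (edgeR adjusted p of up to 0.14); it held without control 2, control 3 or control 6.

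Outside the lists, the 10 named genes with the largest increase were Tmprss11a, Oca2, Large2, Slc28a3, Prr32, Wdr72, Otx2os1, Wfdc2, Sult1c2 and Igfn1, with log2 fold changes of 3.62 to 4.44. Oca2, a melanosomal membrane protein, had 0.44, 0.71 and 1.03 CPM in the Ttr-low and 8.07, 11.3 and 19.8 CPM in the Ttr-high libraries (log2 fold change 4.14 ± 0.22, SE). Tmprss11a, a membrane serine protease, had 0 to 5 reads per Ttr-low library and 2.82 to 6.02 CPM in the Ttr-high ones. Oca2 and Tmprss11a passed the count filter only through the Ttr-high libraries, so their differences are a description. Large2, Slc28a3, Prr32, Wdr72, Otx2os1, Wfdc2, Sult1c2 and Igfn1 did not reach a mean count of 50. With folds of this size few of those reads lay in the Ttr-low libraries, so their differences are a description too. Otx2os1 lies opposite Otx2, and since the strand setting of the counting is not given in the sources used here, its reads cannot be told from those of Otx2. Closest to Ttr in pattern, by the correlation of log2 CPM over the 13 libraries and outside the epithelium lists, were Otx2os1, Drc7, Large2, Oca2, Tmprss11a, Rdh5, Sema3b, Epn3, Slc28a3 and Slc39a4. Drc7, a part of the dynein regulatory complex of cilia, had 3.95 to 6.47 CPM against 22.9 to 50.4 CPM, and Sema3b, a secreted semaphorin, 1.72 to 2.40 CPM against 10.2 to 27.7 CPM.

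The largest decreases among called genes with a mean CPM of at least 1, predicted genes left out, were small in reads or in size. Rtp1, a chaperone of odorant receptors, had 1.254, 1.44 and 2.18 CPM in the Ttr-low and 0.29, 0.85 and 1.28 CPM in the Ttr-high libraries (log2 fold change -1.08 ± 0.29, SE; edgeR adjusted p = 0.037). Its call was lost in 7 of 12 omissions and held without control 2, control 3, control 5, control 6 or knockout 7 (edgeR adjusted p of up to 0.11). Cdh4, or R-cadherin, had 14.2 to 19.0 CPM against 12.5 to 13.8 CPM, without overlap (log2 fold change -0.37 ± 0.08, SE; edgeR adjusted p = 0.0078), and lost its call without control 3 (edgeR adjusted p = 0.053). Fanca, Klhl1, Cxcl5, Alox12b, Bves and Ankrd63 were the others, with log2 fold changes of -0.88 to -0.39, and each but Ankrd63 lost its call in 5 to 9 of 12 omissions.

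A term for the Ttr set changed the genotype comparison in the same 12 libraries. Without it, 97 genes differed between knockouts and controls in edgeR (0.557% of 17424), and with it 253 did (1.45%). The common biological coefficient of variation fell from 0.122 to 0.0859. At an unadjusted p under 0.05 the counts were 2580 and 2894. Neither count is firm: the one with the term was 11 without control 4 and 279 without control 6, and 3 once the run of label numbers was a term too; the one without the term was 3 without knockout 2 and 91 without knockout 4. In all 13 libraries without the term, 4 genes passed (0.0228%).

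Genes that did not follow Ttr kept their estimate. Lpcat3 differed by -0.48 ± 0.09 without and with the term (log2, SE; edgeR adjusted p = 0.030 and 0.013). In all 13 libraries Lpcat3 did not pass without a Ttr term (-0.45 ± 0.09, SE; edgeR adjusted p = 0.096) and passed with log2 CPM of Ttr as a continuous term (-0.44 ± 0.09, SE; edgeR adjusted p = 0.024). Tyrobp, the signalling partner of Trem2, differed by -0.47 ± 0.11 without and -0.50 ± 0.10 with the term (SE; edgeR adjusted p = 0.057 and 0.013), and Cst7, a cystatin of plaque microglia, by -0.49 ± 0.11 and -0.51 ± 0.10 (SE; edgeR adjusted p = 0.055 and 0.017). Apoe differed by -0.31 in both fits, the homeobox gene Meis2 by -0.39, and the lipid peroxidase Gpx4 by -0.27. In all 13 libraries without a Ttr term Apoe and Gpx4 did not pass either (edgeR adjusted p = 0.097 and 0.096), while Meis2 did (edgeR adjusted p = 0.022). For genes that followed Ttr the standard error was smaller with the term. Enpp2 differed between genotypes by 0.08 ± 0.78 without and 0.38 ± 0.15 with the term (log2, SE; edgeR adjusted p = 0.98 and 0.21), and Aqp1 by 0.002 ± 0.95 and 0.47 ± 0.21 (SE; edgeR adjusted p = 0.999 and 0.265). Car12 differed by 0.27 ± 0.32 and 0.42 ± 0.09 (SE; edgeR adjusted p = 0.75 and 0.018), Slco1c1 by 0.20 ± 0.22 and 0.32 ± 0.08 (SE; edgeR adjusted p = 0.74 and 0.043), and Ocln by 0.21 ± 0.11 and 0.28 ± 0.07 (SE; edgeR adjusted p = 0.40 and 0.040). Of these 3, Car12 is on the epithelium lists. They were called for genotype with the Ttr-set term and not without it, and none of the 3 calls held with log2 CPM of Ttr as a continuous term in all 13 libraries (edgeR adjusted p = 0.065 for Car12, 0.051 for Slco1c1 and 0.10 for Ocln). None of these fits held a term for the run of label numbers. Most knockouts were in the first run and most controls in later ones. With the run as a term beside the Ttr set, 3 of all genes tested passed for genotype. At most 3 of the genotype calls given here can therefore have held with it.

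**Figure D5:**
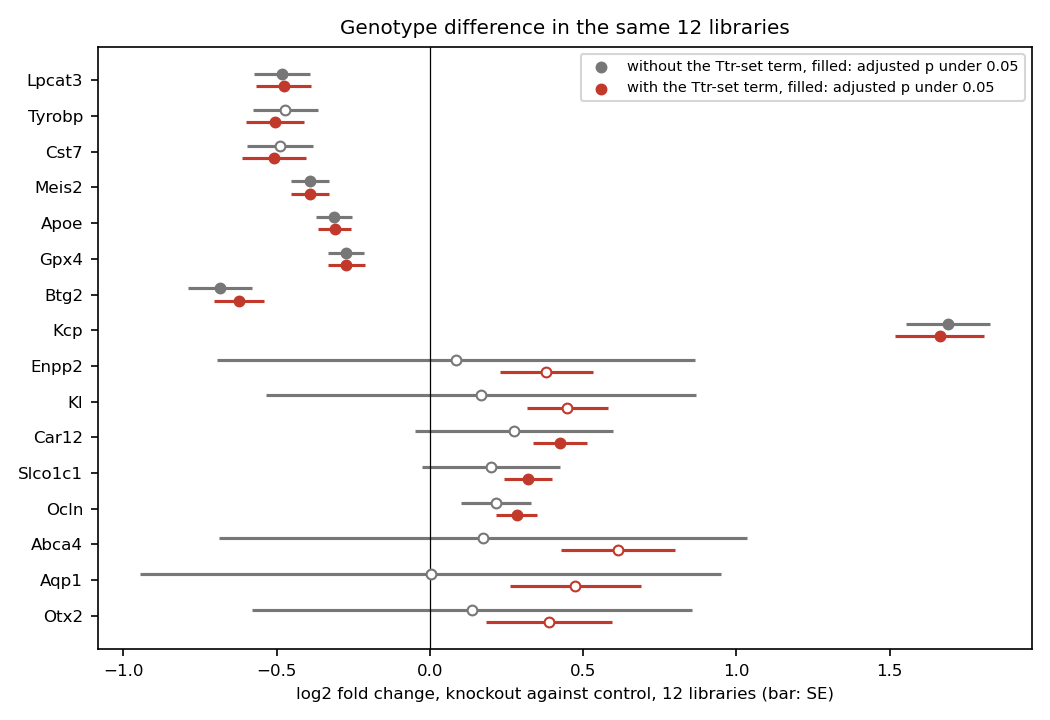
Log2 fold change of knockouts against controls in the same 12 libraries for 16 genes, without (grey) and with (red) a term for the Ttr set; bars are standard errors and filled dots passed the adjusted p of 0.05. The bars of Enpp2, Kl, Car12, Slco1c1, Abca4, Aqp1 and Otx2 shrink with the term, while Lpcat3, Meis2, Apoe and Gpx4 stay in place.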

How the data were processed

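Hippocampal total RNA was made into libraries with a SMART-Seq mRNA kit, per the labels' protocols. Per the submitters' processing notes STAR (2.7.10a) and featureCounts (2.0.3) were used with R (4.2.0), DESeq2 (1.36.0) and GRCm39, with no role stated. Annotation release and strand setting are not known here, so overlapping and antisense genes are uncertain. The authors deposited whole-number read counts per gene, not normalized, for 56980 genes in 13 columns, which name their samples; per-sample columns without a sample numbered 0. Of the Ensembl identifiers, 52073 had a symbol, with 99.7% of the counts; chromosomes come from GENCODE M21 on GRCm38, and Ecrg4 was found through a RefSeq synonym. Libraries are numbered within a genotype in accession order.

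CPM printed here is count over column sum. Sets were fitted in edgeR 4.0.16 (R 4.3.3; TMM factors, filterByExpr by set, genotype and set as terms, quasi-likelihood F-test, Benjamini-Hochberg over all genes), with standard errors from the log2 fold change and F. DESeq2 1.42.0 was an alternative. The 36 pairs of libraries of 1 genotype all differed by more than sampling noise, with chi-square values per gene between 3.13 and 20.4, and all 13 libraries were kept. Simulated counts for 17222 genes in this design were tested: recovery was 52% for 1.25-fold changes, 66% for 1.5-fold, 100% for 2-fold and 90% for 4-fold ones, and 7.78% of calls were false.

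The sets, members and 34 gene lists were chosen with earlier results of these data known. Named genes were all epithelium list members, a panel of 17, up to 10 per direction with the largest change at a mean CPM of at least 1 (predicted and epithelium genes left out), up to 4 per other list with the smallest p, and the 10 most like Ttr; Sgk1, Folr2, Pf4, Fbln1, Ak7 and Ccdc39 were chosen after their values were seen. The numbers in the sample titles form 3 runs (3283 to 3288, 3296 to 3300, 4301 to 4307) of unstated meaning. From these runs the Ttr-high set held 3, 1 and 2 libraries and the Ttr-low set 2, 3 and 1. Genotype was unevenly spread over the runs, with most knockouts in the first. Of the controls, control 1 alone was in the first run, and it was the middle library left out of the sets. Alternatives were other normalizations, filters, set sizes, a continuous Ttr term, a run term, single genotypes and leaving out each library. Values of some single genes are not reported here.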

Additional observations from a re-analysis of the deposited data

Results flagged for a closer look

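Within the 6 Ttr-high or the 6 Ttr-low libraries, 110 groups of values were examined for 1 library far from the other 5, and 16 were found. Chance gives about 1 in 20 for independent groups. These groups share libraries and many of the genes vary together, so the 16 cannot be set against that rate. In the Ttr-high libraries knockout 3 stood above the next library for Enpp2 (6907 against 4089 CPM), Aqp1 (59.2 against 35.2), Kcne2 (62.8 against 34.4), Slc4a5 (66.4 against 38.0), Slc16a8 (12.9 against 8.55), Trpv4 (53.9 against 29.1), Tmem72 (64.6 against 36.9), Htr2c (90.2 against 65.7) and Cldn2 (75.2 against 43.1). Knockout 3 also had the highest Ttr. Control 5 stood highest for Trf (836 against 745 CPM).

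In the Ttr-low libraries knockout 6 stood highest for Slco1a5 (0.64 against 0.27 CPM), Slc5a5 (22.5 against 17.4 CPM) and the share of haemoglobin reads (0.00121% against 0.00034%). Knockout 7 stood highest for Trf (747 against 632 CPM) and Msx1 (13.9 against 9.99 CPM), and knockout 2 lowest for Lbp (3.20 against 5.46 CPM).

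The difference between the Ttr sets itself differed between genotypes for Sgk1, a kinase gene on the glucocorticoid response list, by -1.31 ± 0.19 in knockouts minus controls (log2, SE; edgeR adjusted p = 0.020). The Ttr-low controls in this comparison are 2 libraries.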

How the results depend on the processing

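The count of epithelial genes called higher, 46, lay between 41 and 48 over all alternatives run, and the 652 higher genes changed by more than 1.5 times in controls alone (196). The 135 lower genes became 211 in DESeq2, 261 without a count filter, 74 at a mean count of at least 50, 86 with the middle library among the highest, 85 without the genotype term, 46 in knockouts alone and 24 in controls alone. Genotype calls with the Ttr term, 253, became 616 in DESeq2, 695 without a filter, 3 with the run term, 78 and 44 with the middle library among the highest or the lowest, 75 at 4 against 4 libraries and 68 with log2 Ttr over 13 libraries. Those without the term, 97, became 528 in DESeq2 and 4 in all 13 libraries. The interaction count, 1, became 9 in DESeq2. Leaving out 1 library at a time gave 441 (without knockout 3) to 714 (without control 2) higher genes, 33 (without control 3) to 225 (without control 2) lower genes, 45 to 47 epithelial genes, 11 (without control 4) to 279 genotype calls with the term and 3 (without knockout 2) to 91 without it. Among the 7 highest libraries, 72 genes had a slope on Ttr, or 20 (without knockout 3) to 251 (without control 2) with 1 left out, and 13 to 41 epithelial genes rose. These slopes and robust edgeR were chosen after seeing the data. Of the 101 named genes that were called, 66 were called under every alternative run, and none changed direction; the cause of the lost calls was not tested. Genes at a few reads per Ttr-low library, such as Cltrn and Cdh3, have fitted folds that depend on the prior count. No paired analysis was possible because the labels give no replicate number that knockouts and controls share.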
